A study of Mus musculus with 20 samples.

Results

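Sca1 (Ly6a) and 7 other cell surface genes, listed as progenitor surface markers, were followed in sorted stromal cells of mouse bone marrow. The name is that of the list, and not every gene in it is particular to progenitors. The genes were Ly6a, Ly6c1, Ly6e, Thy1, Cd34, Cd55, Dpp4 and Nt5e, chosen by symbol, and they are 8 of the 24347 gene symbols measured. They were chosen with earlier results of these data known. The shares of all genes given beside their counts are thus a description and test no excess. All 8 were among the 12938 genes tested. Thy1 passed the filter only through the PaS libraries, since its CAR values were all below 1 FPKM.

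Marrow mesenchymal stromal cells support blood stem cells and give rise to bone, fat and fibrous tissue. Sca1 is a small protein of the Ly6 family that is tied to the outer membrane by a glycosylphosphatidylinositol (GPI) anchor, and it is used with PDGFRα to sort the PaS progenitor fraction of marrow stroma. Ly6c1, Ly6e, Thy1, Cd55 and Nt5e also encode GPI-anchored proteins, whereas Cd34 and Dpp4 encode proteins that span the membrane. In mouse connective tissue Dpp4, Cd55 and Cd34 are used as markers of fibroblast progenitors. EBF1 is a DNA-binding factor needed for B cells and for stromal lineages.

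The study sequenced RNA from 4 groups of 3 libraries: PaS ko, PaS wt, CAR ko and CAR wt. Genotype ko is Ebf1fl/fl;Prx1+/cre and genotype wt is Ebf1+/+;Prx1+/cre, both on C57BL/6, so every group carried the Prx1-Cre transgene, whose promoter is active in limb mesenchyme. PaS cells were sorted as CD45-CD31-Lin-PDGFRα+Sca1+ and CAR cells (CXCL12-abundant reticular cells) by the same markers but Sca1-, after crushing and collagenase digestion of femora and tibiae. The labels give neither the age of the mice nor whether the 3 libraries of a group came from separate animals, so p-values measure the spread between libraries, which may be technical. The 8 ATAC-seq samples of the series were not analysed here.

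Promoter sequence is shown for Dpp4 and Cd55, Cd34 and Nt5e because these were the 4 genes called between genotypes in PaS cells. The sequences are RefSeq's, on GRCm38.p6, and run 5′ to 3′ on the strand of the gene. They were searched for the EBF core CCCNNGGG and its longer form TCCCNNGGGA, both of which read the same on either strand, and capitals mark a match.
Dpp4: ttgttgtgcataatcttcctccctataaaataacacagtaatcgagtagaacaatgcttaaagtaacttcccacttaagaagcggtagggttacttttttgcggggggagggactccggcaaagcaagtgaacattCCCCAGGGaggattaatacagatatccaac
Cd55: gacaactaggtCCCCTGGGtgaagctagag
Cd34: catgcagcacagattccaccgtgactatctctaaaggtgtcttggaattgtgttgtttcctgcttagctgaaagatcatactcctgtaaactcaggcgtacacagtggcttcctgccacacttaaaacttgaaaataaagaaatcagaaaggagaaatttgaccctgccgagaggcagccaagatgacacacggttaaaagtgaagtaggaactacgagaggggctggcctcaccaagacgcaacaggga
Nt5e: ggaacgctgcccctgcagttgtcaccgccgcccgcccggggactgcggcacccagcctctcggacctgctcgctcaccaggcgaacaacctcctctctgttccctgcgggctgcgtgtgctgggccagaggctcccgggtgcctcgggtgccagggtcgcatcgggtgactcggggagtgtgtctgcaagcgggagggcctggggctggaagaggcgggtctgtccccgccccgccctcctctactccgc
The Dpp4 stretch is chr2:62412316-62412481 on the minus strand, upstream of the annotated gene, and its match begins 114 bases before the start site used. That match also has the longer form. The Cd55 stretch is chr1:130462831-130462860 on the minus strand, inside the annotated span of the gene, with a match of CCCNNGGG that begins 105 bases before the start of a shorter transcript. The Cd34 window is chr1:194938571-194938820 and the Nt5e window chr9:88327359-88327608, both on the plus strand, and neither holds the letters CCCNNGGG. Of 32851 mouse promoter windows of 250 bases, 11.8% hold CCCNNGGG and 0.779% hold TCCCNNGGGA. A match describes the letters and is not a binding site.

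On GRCm38.p6, the assembly of mm10, the 3 Ly6 genes lie close together on chromosome 15. Ly6e spans 74955025 to 74959904, Ly6a 74994877 to 74998031 and Ly6c1 75044018 to 75048920. Thy1 (44043384 to 44048579) and Nt5e (88327609 to 88372089) lie on chromosome 9, Cd34 (194938821 to 194961292) and Cd55 (130429798 to 130465009) on chromosome 1, and Dpp4 (62330073 to 62412315) on chromosome 2. All 8 are annotated as protein coding, and each value below is for the whole gene. Ly6a overlaps the long non-coding RNA gene Gm28068, Cd34 overlaps Gm16897 and Cd55 overlaps Cd55os. The labels do not say that fragments were counted by strand, so the reads of such pairs cannot be told apart.

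Summed values ran from 491801 to 526074 FPKM (a fragment count corrected for transcript length and library size) per library, and the read depth is unknown. The PaS wt library of replicate 1 had no signal (a listed 0) for 24.6% of genes, where the other libraries had between 33.3% and 37.0%. The targeted gene Ebf1 had 62.5 ± 2.18 FPKM in PaS ko and 55.9 ± 5.89 FPKM in PaS wt libraries, and 57.5 ± 1.99 FPKM in CAR ko and 48.1 ± 1.10 FPKM in CAR wt libraries (SD, n = 3 each). It was thus not lower in libraries labelled ko. A whole-gene value can include exons outside the deleted part, which the labels do not name, so it does not check the genotype, and ko and wt below mean libraries labelled so. All 10 PaS and fibroblast markers were higher in PaS than in CAR libraries in both genotypes, and all 8 CAR cell markers were lower. Among all tested genes, 19.8% were higher in PaS cells in ko and 22.7% in wt libraries, and the share that was lower is not given here. Both lists were chosen with earlier results of these data known. The counts are thus a description and do not check the labels.

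Of the 8 genes, 6 were far more abundant in PaS than in CAR cells. Ly6a, Ly6c1 and Cd34 were among the most abundant transcripts of PaS cells and had between 3.82 and 16.3 FPKM in CAR libraries, and Thy1, Cd55 and Dpp4 were also several-fold to many-fold higher in PaS cells. Ly6e was present at over 100 FPKM in both populations, and Nt5e was nearly level between them. By mean FPKM among the 12938 tested genes, Ly6a ranked 28 in PaS ko and 24 in PaS wt libraries, Ly6c1 ranked 58 in PaS ko and 53 in PaS wt, and Cd34 ranked 127 in PaS ko and 85 in PaS wt. Both Ly6a and Thy1 were left out of the counts between populations, since the product of Ly6a set the gate and Thy1 entered the test only through its PaS values. Of the other 6, 5 were higher in PaS ko than in CAR ko libraries at an adjusted p under 0.05 (limma, Benjamini-Hochberg over all tested genes), where 19.8% of all tested genes were higher. The same number was higher in PaS wt than in CAR wt libraries, where 22.7% of all tested genes were higher. The libraries of the 2 populations did not overlap for any of these 6 in either genotype, as was so for 47.9% of all genes between the ko groups and 51.2% between the wt groups. For Nt5e, the gene not called, they nearly touched. Its lowest PaS ko value was 40.22 FPKM against a highest CAR ko value of 40.00 FPKM, and the same values in wt were 22.94 and 22.93 FPKM. The median difference of the 6 genes was 3.35 (log2) between the ko groups, against -0.00 for all genes, and 3.86 between the wt groups, against 0.00 for all genes. Since the genes were chosen with earlier results of these data known, these comparisons with all genes are a description.

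**Figure D1:**
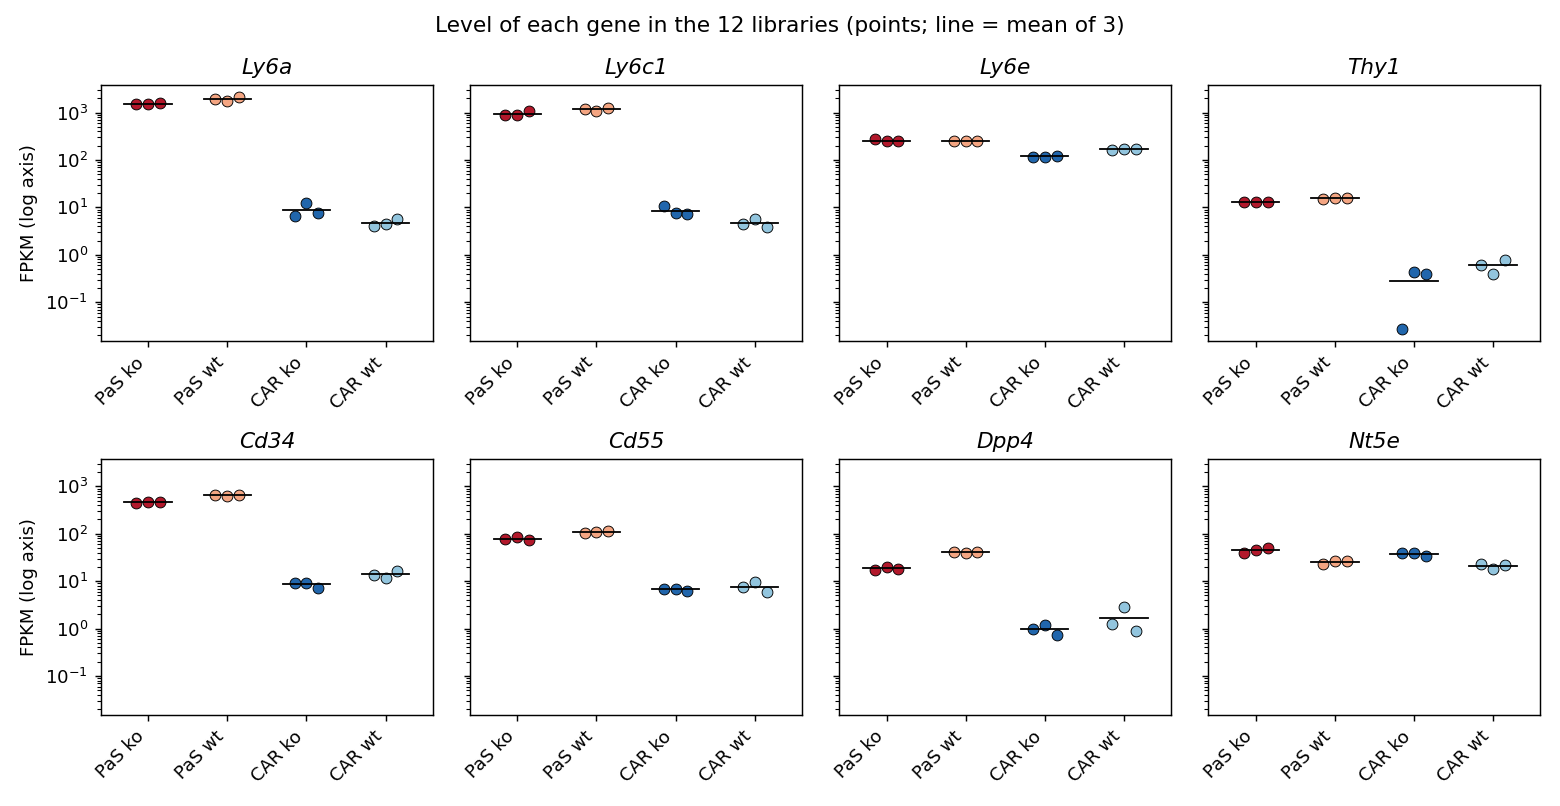
Level of each gene in FPKM (log axis) in the 12 libraries, with a panel per gene, points for libraries and lines for the mean of 3. Ly6a, Ly6c1, Thy1, Cd34, Cd55 and Dpp4 sit far higher in PaS than in CAR libraries, while Ly6e and Nt5e are of similar order in all 4 groups.

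Within each population the genes differed by genotype, and not in one direction. In PaS cells labelled ko, Cd34, Cd55 and Dpp4 were lower and Nt5e was higher than in those labelled wt, 4 of 8 genes called, where 7.44% of all tested genes were called in that comparison. In CAR cells labelled ko, Ly6a, Ly6c1 and Nt5e were higher and Ly6e and Cd34 were lower than in those labelled wt, 5 of 8 genes called, where 12.3% of all tested genes were called. The groups did not overlap for 6 of the 8 genes in PaS cells, against 23.4% of all tested genes, and for 5 of 8 in CAR cells, against 29.9%. These counts describe genes chosen with earlier results of these data known, and Thy1 among them entered the test only through its PaS values. They also include Ly6a, whose product set the gates, so its part in them is limited by the sort. The median difference, ko minus wt, was -0.32 (log2) for the 8 genes in PaS cells, against 0.00 for all tested genes, and -0.24 in CAR cells, against 0.01. In these bulk samples, fewer cells of a type and less RNA per cell cannot be told apart.

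**Figure D2:**
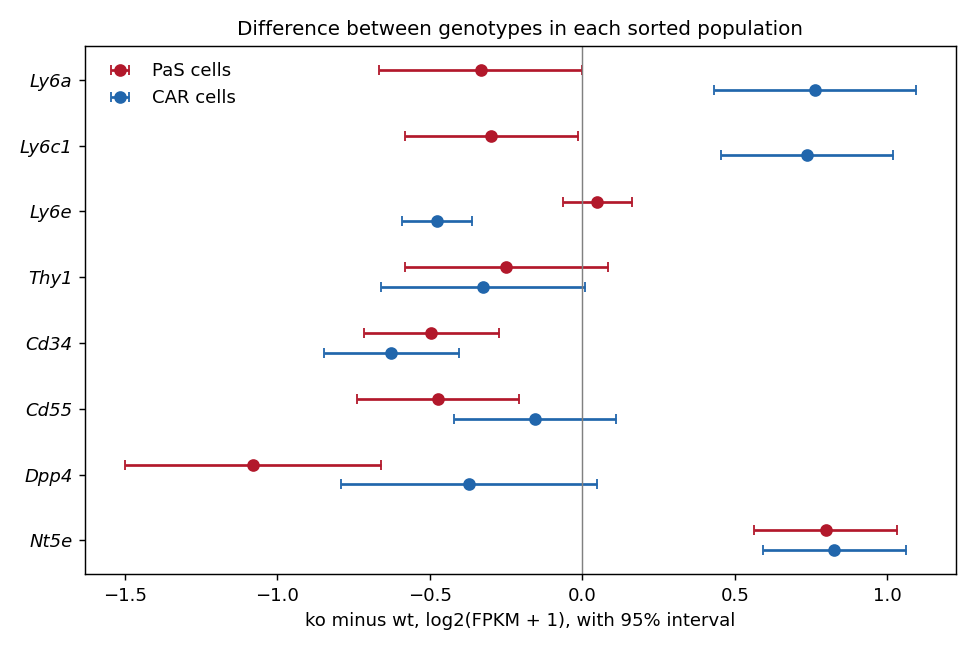
Difference between ko and wt libraries of each gene, in log2(FPKM + 1) with its 95% interval, in PaS cells (red, above) and CAR cells (blue, below). Nt5e lies near 0.8 in both populations, Cd34 lies below 0 in both, and Ly6a and Ly6c1 lie on opposite sides of 0.

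Ly6a encodes Sca1, the marker that divides the 2 gates, so its level between them is given as a description. It had 1539, 1524 and 1590 FPKM in PaS ko libraries, against 1972, 1740 and 2176 FPKM in PaS wt libraries. All 3 ko values lay below all 3 wt values in PaS cells, but the difference of -0.33 (log2(FPKM + 1), SE 0.16) did not pass the test (adjusted p = 0.26). With only the 2 PaS groups in the fit, the same difference had an adjusted p of 0.0142.

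In CAR cells Ly6a was low, and it was higher in ko. It had 6.67, 12.3 and 7.53 FPKM in CAR ko libraries, against 4.03, 4.38 and 5.58 FPKM in CAR wt libraries, again without overlap. This was an increase of 0.76 (log2, SE 0.16, adjusted p = 0.0042). The difference between populations in the genotype effect, PaS minus CAR, was -1.10 (SE 0.22, adjusted p = 0.0065), and its adjusted p was 0.0514 when no filter on low values was used. Mean Ly6a in CAR cells came to 0.568% of that in PaS cells among ko libraries and 0.238% among wt libraries. The cells of each gate had already been selected on Sca1 protein, so these are levels of Ly6a within the limits of a gate.

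Ly6c1, a neighbour of Ly6a that encodes the Ly6C antigen of endothelial cells and some leukocytes, had nearly the same profile. It had 906, 870 and 1079 FPKM in PaS ko libraries, against 1162, 1078 and 1264 FPKM in PaS wt libraries. The 2 PaS groups overlapped, and the difference of -0.30 (SE 0.13) was not called (adjusted p = 0.23). Its CAR levels were 10.5, 7.49 and 7.25 FPKM in ko libraries, against 4.40, 5.67 and 3.82 FPKM in wt libraries, with no overlap.

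The increase of Ly6c1 in CAR ko libraries was 0.74 (SE 0.13, adjusted p = 0.0017), close in size to that of Ly6a. Its genotype effect also differed between the populations, by -1.04 (PaS minus CAR, SE 0.19, adjusted p = 0.0032). Between populations Ly6c1 differed by 6.67 in ko (95% interval 6.39 to 6.96) and by 7.71 in wt libraries (7.43 to 7.99), with adjusted p = 3.9e-15 and 5.9e-16. Ly6c1 is nearly identical to Ly6c2, a monocyte gene, and reads may be shared between them, so the values of both are uncertain. Ly6c2 had 59.4 ± 7.55 FPKM in PaS ko and 134 ± 11.7 FPKM in PaS wt libraries, and 49.5 ± 5.44 FPKM in CAR ko and 162 ± 17.0 FPKM in CAR wt libraries (n = 3 each). Ly6c2 was thus lower in ko in both populations, with differences of -1.16 in PaS cells (adjusted p = 3.4e-06) and -1.69 in CAR cells (adjusted p = 1e-07), a direction that Ly6c1 did not share in CAR cells.

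Ly6e, a widely expressed and interferon-inducible member of the family, differed between genotypes in CAR cells and not detectably in PaS cells. It had 274, 250 and 250 FPKM in PaS ko libraries, against 251, 249 and 247 FPKM in PaS wt libraries, and these overlapped. The PaS difference was 0.05 (95% interval -0.06 to 0.16, adjusted p = 0.69). In CAR cells it had 118, 118 and 123 FPKM in ko libraries, against 164, 168 and 169 FPKM in wt libraries. All CAR ko values were below all CAR wt values, a difference of -0.48 (SE 0.05, adjusted p = 2.5e-05).

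The genotype effect on Ly6e thus differed between populations by 0.53 (PaS minus CAR, SE 0.08, adjusted p = 0.00054). The distance between the populations was 1.10 in ko libraries (adjusted p = 1.3e-10) and 0.57 in wt libraries (adjusted p = 3.1e-07). CAR cells held 46.5% of the mean PaS level among ko libraries and 67.1% among wt libraries. Ly6e was the gene of the Ly6 trio for which the 2 populations lay farther apart in ko, whereas Ly6a and Ly6c1 lay closer together there.

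Thy1 encodes CD90, a GPI-anchored adhesion protein used to define mesenchymal stromal cells. It had 12.8, 12.8 and 12.9 FPKM in PaS ko libraries, against 14.7, 15.5 and 16.2 FPKM in PaS wt libraries. The PaS groups did not overlap, but the difference of -0.25 (95% interval -0.58 to 0.09) was not called (adjusted p = 0.44). The CAR libraries had 0.0268, 0.445 and 0.390 FPKM in ko libraries, against 0.620, 0.399 and 0.791 FPKM in wt libraries, all under 1 FPKM and overlapping. The CAR difference was -0.33 (95% interval -0.66 to 0.01, adjusted p = 0.21). Between populations, PaS minus CAR, Thy1 differed by 3.44 in ko and 3.37 in wt libraries, given with no test because the gene passed the filter only where it was high. Its CAR levels were below the pseudocount of 1, so these values understate the ratio.

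Cd34 encodes a sialomucin of blood progenitors, endothelial cells and fibroblast progenitors, and it was lower in ko in both populations. It had 442, 472 and 468 FPKM in PaS ko libraries, against 662, 618 and 671 FPKM in PaS wt libraries. In CAR cells it had 9.37, 9.11 and 7.30 FPKM in ko libraries, against 13.6, 11.7 and 16.3 FPKM in wt libraries. Neither pair of groups overlapped, and Cd34 was the one gene of the 8 called lower in both.

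The difference of Cd34, ko minus wt, was -0.50 in PaS cells (SE 0.10, adjusted p = 0.0065) and -0.63 in CAR cells (SE 0.10, adjusted p = 0.00084). The difference between these effects was 0.13 with a 95% interval of -0.18 to 0.44 (adjusted p = 0.68). Between populations Cd34 differed by 5.60 in ko (adjusted p = 2.8e-15) and 5.46 in wt libraries (adjusted p = 1.7e-15), which ranked it 11 and 15 among all tested genes by the size of the increase. The ratio of Cd34 to Ly6a FPKM lay between 0.287 and 0.310 in PaS ko and between 0.309 and 0.355 in PaS wt libraries. In CAR cells the same ratio lay between 0.743 and 1.41 in ko and between 2.67 and 3.37 in wt libraries, and these ranges did not overlap.

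Cd55 encodes decay-accelerating factor, which dissociates complement convertases on the cell surface, and it was lower in PaS ko cells. It had 76.4, 85.5 and 74.6 FPKM in PaS ko libraries, against 105, 111 and 113 FPKM in PaS wt libraries, with no overlap. CAR levels were 6.99, 6.71 and 6.35 FPKM in ko libraries, against 7.47, 9.77 and 5.87 FPKM in wt libraries, and these overlapped. The PaS difference was -0.47 (SE 0.12, adjusted p = 0.028), and the CAR difference was -0.16 (95% interval -0.42 to 0.11, adjusted p = 0.50).

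The call of Cd55 in PaS cells was near the threshold. Its adjusted p was 0.0837 with no filter on low values and 0.0503 with a pseudocount of 0.1. Leaving out replicate 1 or 3 of PaS ko gave 0.0946 and 0.104, and leaving out replicate 1, 2 or 3 of PaS wt gave 0.0609, 0.0795 and 0.0898. The effects in the 2 populations differed by -0.32 (95% interval -0.69 to 0.06, adjusted p = 0.34). Between populations Cd55 differed by 3.38 in ko and 3.69 in wt libraries (adjusted p = 4.7e-12 and 1.2e-12).

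Dpp4 encodes CD26, a membrane-bound peptidase that trims chemokines, CXCL12 among them, and it showed the largest decrease of the 8 genes in PaS cells. It had 17.6, 19.9 and 18.4 FPKM in PaS ko libraries, against 41.1, 39.96 and 40.3 FPKM in PaS wt libraries. The 2 groups lay far apart, and mean Dpp4 fell by 54.0%. The difference of -1.08 (SE 0.20, adjusted p = 0.0023) ranked it 141 from the lowest of the 12938 tested genes.

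In CAR cells Dpp4 was close to the lowest level tested. It had 0.962, 1.20 and 0.745 FPKM in CAR ko libraries, against 1.27, 2.82 and 0.881 FPKM in CAR wt libraries. These overlapped, with a difference of -0.37 (95% interval -0.79 to 0.05, adjusted p = 0.26). The effects in the 2 populations differed by -0.71 (SE 0.28, adjusted p = 0.16). That test depended on 1 library and on the pseudocount: the difference was -1.003 (adjusted p = 0.00531) without CAR wt replicate 2, the highest CAR value, and -0.80 (adjusted p = 0.00209) with a pseudocount of 5.

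Dpp4 and Cd55 both fell in PaS cells, by unequal amounts. The ratio of Dpp4 to Cd55 FPKM lay between 0.230 and 0.247 in PaS ko libraries and between 0.357 and 0.389 in PaS wt libraries, without overlap. Between populations Dpp4 differed by 3.32 in ko and 4.03 in wt libraries (adjusted p = 1.4e-09 and 1.1e-10).

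Nt5e encodes CD73, the ecto-enzyme that turns AMP into adenosine, and it was the one gene of the 8 that was higher in ko in both populations. It had 40.2, 45.0 and 49.3 FPKM in PaS ko libraries, against 22.9, 26.3 and 26.8 FPKM in PaS wt libraries. In CAR cells it had 40.0, 39.1 and 33.6 FPKM in ko libraries, against 22.9, 17.7 and 21.8 FPKM in wt libraries. All 6 ko libraries lay above all 6 wt libraries.

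The increase of Nt5e was 0.80 in PaS cells (SE 0.11, adjusted p = 2e-04) and 0.83 in CAR cells (SE 0.11, adjusted p = 0.00013). These ranked 170 and 153 from the highest of all tested genes. The effects differed by -0.03 with a 95% interval of -0.36 to 0.30 (adjusted p = 0.95). Between populations Nt5e differed by 0.25 in ko (adjusted p = 0.091) and 0.28 in wt libraries (adjusted p = 0.054), neither of them called. Its means ran in the order PaS ko, CAR ko, PaS wt and CAR wt, and the libraries of neighbouring groups in that order did not overlap. Within a genotype the 2 populations nearly touched, at 40.22 (PaS) and 40.00 (CAR) FPKM in ko and 22.94 and 22.93 FPKM in wt. Without CAR wt replicate 1 the wt difference was 0.35 (adjusted p = 0.0333), without PaS wt replicate 1 it was 0.34 (adjusted p = 0.035), and it was also called with a filter of 5 FPKM (adjusted p = 0.0477) and with median-ratio scaling (adjusted p = 0.0452).

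**Figure D3:**
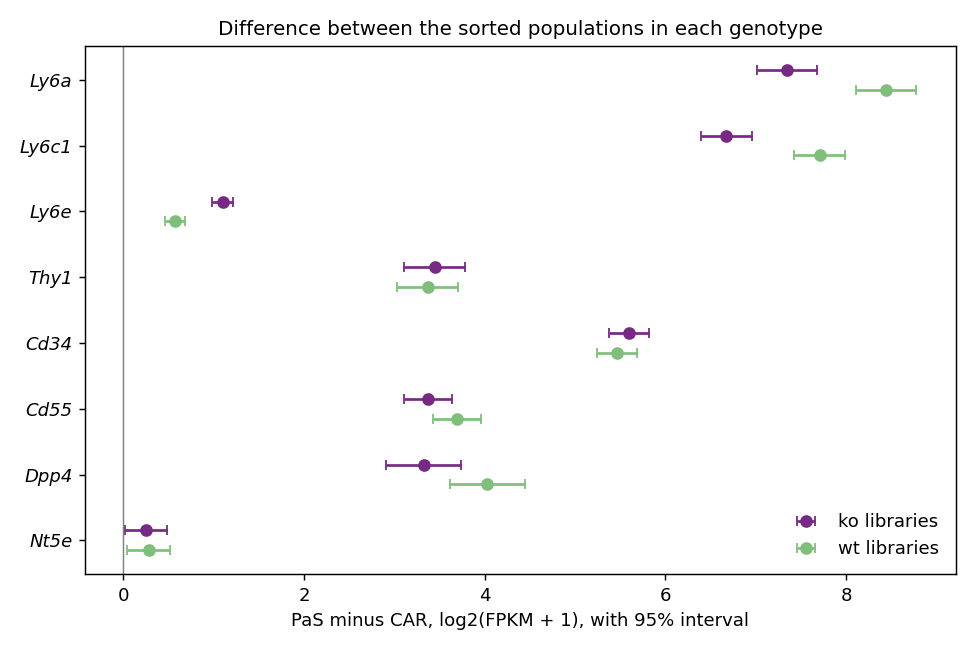
Difference between PaS and CAR libraries of each gene, in log2(FPKM + 1) with its 95% interval, in ko (purple, above) and wt (green, below). The intervals of Ly6a and Thy1 are not to be read as tests. The sort set the gap of Ly6a, and Thy1 passed the filter only through its PaS values. Ly6a (7.35 in ko and 8.44 in wt) and Ly6c1 (6.67 and 7.71) lie closer to 0 in ko, Ly6e lies farther from 0 in ko, and Nt5e is near 0 in both.

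Of the 8 genes, 3 had a genotype effect that differed between PaS and CAR cells at an adjusted p under 0.05, where 6.58% of all tested genes did. They were the 3 Ly6 genes on chromosome 15. For Ly6a, this difference is also the change in a gap between gates that its own product set, so its call is limited by the sort. Ly6c1 and Ly6e were not sort markers. Thy1, also among the 8, entered the test only through its PaS values. The median of this difference over the 8 genes was -0.17, against -0.02 for all tested genes. Thy1, Cd34, Cd55, Dpp4 and Nt5e were not called, with differences of 0.08, 0.13, -0.32, -0.71 and -0.03. For Thy1 and Cd34 the sign of the difference was negative with a pseudocount of 5, at -0.11 and -0.02.

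The genes whose levels followed each marker most closely were ranked by Pearson correlation of log2(FPKM + 1) over the 12 libraries, which share the gap between PaS and CAR cells. Ly6a was most like Vim, Clec3b and Mfap5 (0.999 each), and Ly6c1 most like Htra3, Igfbp6 and Galnt15 (0.998 each). Thy1 and Cd34 had Pcolce2 (0.997 and 0.998) and Meox2 (0.996 and 0.997) in common, and Thy1 was also close to Steap3 (0.996) and Cd34 to Palm (0.997). Cd55 was most like Ablim1 (0.998), followed by Tmod2 and Glud1 (0.998 and 0.997).

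Dpp4 was most like Lgi4 (0.996), Efhd1 (0.994) and Lrrn4cl (0.994). Efhd1 had 17.8 FPKM in PaS ko and 42.6 FPKM in PaS wt libraries, levels close to those of Dpp4, with a genotype difference of -1.22 in PaS cells (adjusted p = 0.00020). Lrrn4cl had 77.1 FPKM in PaS ko and 154 FPKM in PaS wt libraries (-0.99, adjusted p = 4.4e-06). Ly6e was most like Cd74 (0.990), Cfp (0.984) and Lrrc8d (0.984), of which the first pair are genes of antigen-presenting and myeloid cells.

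Nt5e had a profile unlike those of the other 7. Its correlation with each of the other 7 genes lay between 0.04 and 0.32, whereas those 7 correlated with one another at 0.89 to 1.00. These correlations include the gap between PaS and CAR cells, which was small for Nt5e (0.25 in ko and 0.28 in wt libraries). The sort set that gap for Ly6a, and Thy1 entered only through its PaS values. The correlations thus do not show likeness within a population. The genes most like it were Uaca (0.960), Crispld1 (0.955) and Gbp8 (0.939). Uaca had 12.3 FPKM in PaS ko and 7.08 FPKM in PaS wt libraries, and 10.8 FPKM in CAR ko and 5.61 FPKM in CAR wt libraries. It too was higher in ko in PaS cells (0.72, adjusted p = 0.0019) and in CAR cells (0.83, adjusted p = 0.00049).

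Other genes of the same families were examined by lists. Of all tested genes, 7.44% were called between genotypes in PaS cells and 12.3% in CAR cells. In a list of a few genes, no call or 1 call is close to these shares. Of 30 genes with a Ly6 or uPAR domain other than the 8, 15 were tested. In PaS cells 2 rose and 4 fell in ko, with a median of -0.08, and in CAR cells 2 rose and 3 fell, with a median of -0.08. Slurp1, a secreted Ly6 protein, rose in both, with 138 FPKM in PaS ko and 48.9 FPKM in PaS wt libraries (1.499, adjusted p = 0.00016), and with 6.08 FPKM in CAR ko and 1.49 FPKM in CAR wt libraries (1.55, adjusted p = 0.00011). Plaur, the urokinase receptor, fell in both, with differences of -0.81 in PaS cells (adjusted p = 0.00013) and -0.83 in CAR cells (adjusted p = 8.6e-05). Ly6d, a marker of lymphoid commitment, had 11.99 FPKM in CAR ko and 35.8 FPKM in CAR wt libraries (-1.51, adjusted p = 2.5e-05), while its PaS difference of 0.32 was not called (adjusted p = 0.34).

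Of 10 complement regulators reported beside Cd55, 6 were tested. Of these 6, Clu and Cd59a, both of which act on the terminal complex, rose in ko in both populations, and the other 4 were not called in either. Cd59a, a GPI-anchored inhibitor of the membrane attack complex that also belongs to the Ly6 domain list, had 8.94 FPKM in PaS ko and 4.07 FPKM in PaS wt libraries (0.99, adjusted p = 6.1e-05). In CAR cells it had 27.8 FPKM in ko and 16.4 FPKM in wt libraries (0.73, adjusted p = 0.00077). Cd55b, the second mouse gene for decay-accelerating factor, was below 0.1 FPKM in the mean of every group and was not tested.

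Of 15 genes of extracellular adenosine handling other than Nt5e, 13 were tested, and in PaS cells 3 rose and 1 fell in ko, with a median of 0.01. In CAR cells 3 rose and none fell, with a median of -0.03. Alpl, tissue-nonspecific alkaline phosphatase, which can also release adenosine from AMP, rose in both. It had 141 FPKM in PaS ko and 92.1 FPKM in PaS wt libraries (0.61, adjusted p = 2.6e-05), and 683 FPKM in CAR ko and 349 FPKM in CAR wt libraries (0.97, adjusted p = 2.2e-07). Entpd3, which degrades ATP and ADP, had 48.7 FPKM in CAR ko and 17.8 FPKM in CAR wt libraries (1.41, adjusted p = 1.8e-05), and in PaS cells it rose by 0.92 (adjusted p = 0.0010). Entpd2, of the same family, was lower in PaS ko cells, with a difference of -0.57 (adjusted p = 0.00014).

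Of 9 listed prolyl peptidases related to Dpp4, 7 were tested. In PaS cells 0 were called (limma), where 7.44% of all tested genes were called, so 0 of 7 is close to that share. There 0 had an unadjusted p under 0.05, with a median of -0.12. In CAR cells 2 rose in ko and none fell, with a median of 0.06. Fap, fibroblast activation protein, had 137 FPKM in PaS ko and 135 FPKM in PaS wt libraries, and 310 FPKM in CAR ko and 182 FPKM in CAR wt libraries. Its CAR increase was 0.76 (adjusted p = 2.6e-06), and the effects in the 2 populations differed by -0.74 (adjusted p = 0.00025).

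Among 4 sialomucins related to Cd34, none was called in PaS cells (limma), where 2 had an unadjusted p under 0.05, and Cd164 rose in CAR cells (0.35, adjusted p = 0.0012). Their medians were -0.10 in PaS and 0.24 in CAR cells. Of 20 other mesenchymal surface markers 18 were tested, and 4 rose and 2 fell in PaS ko (median 0.03) while 5 rose and 1 fell in CAR ko (median 0.15). Cd248, endosialin, had 209 FPKM in PaS ko and 332 FPKM in PaS wt libraries (-0.67, adjusted p = 5.2e-05), and its effects in PaS and CAR cells differed by -1.003 (adjusted p = 5.9e-05). The other that fell in PaS ko was Pdgfra, whose product was a sort marker of both gates. It had 111 FPKM in PaS ko and 142 FPKM in PaS wt libraries (-0.36, adjusted p = 0.0032). In CAR cells Pdgfra was not called (0.16, adjusted p = 0.15), and its effects in the populations differed by -0.52 (adjusted p = 0.0035). Cd200, an immune checkpoint ligand, rose by 0.52 in PaS and 0.50 in CAR cells (adjusted p = 0.00014 and 0.00017).

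The GPI anchor is shared by 6 of the 8 proteins, and none of the listed genes of its synthesis and processing was called between genotypes. The list held 17 genes and not the whole pathway. Of these 17, 0 were called in PaS cells and 0 in CAR cells (limma), where 7.44% and 12.3% of all tested genes were called. In so short a list, 0 is not far from those shares. Of the 17, 0 in PaS and 1 in CAR cells had an unadjusted p under 0.05, with medians of -0.03 and 0.10. Of 16 tested interferon-stimulated genes, 1 was called in each population, again near those shares: Irf1 fell in PaS cells (-0.23, adjusted p = 0.021) and Rsad2 fell in CAR cells (-0.48, adjusted p = 0.048). The medians of this list were 0.10 in PaS and 0.07 in CAR cells.

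**Figure D4:**
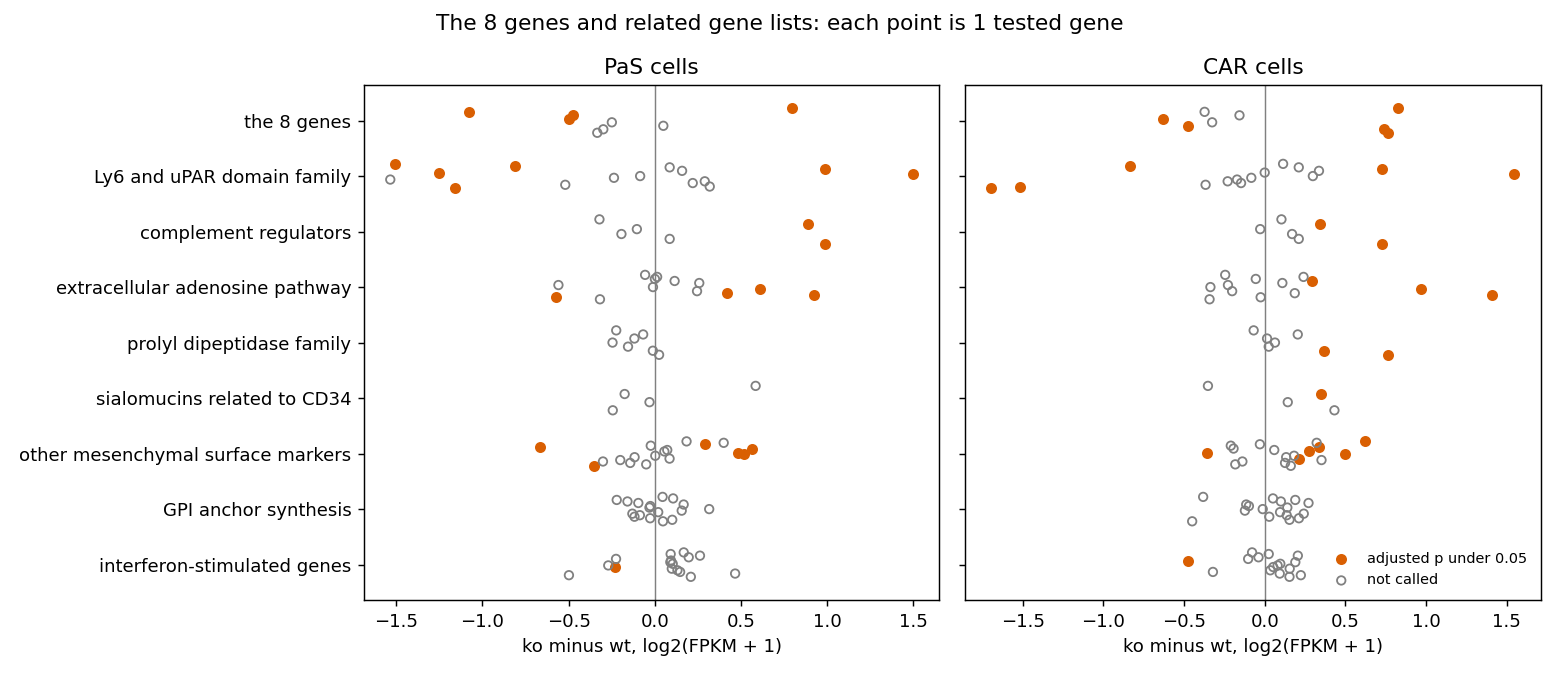
Difference between ko and wt libraries, in log2(FPKM + 1), for the 8 genes and for the tested genes of each related list, in PaS cells (left) and CAR cells (right), with 1 point per gene. Filled points have an adjusted p under 0.05: in the complement regulator list the 2 filled points lie above 0 in both panels, and the GPI anchor list has none. Of all tested genes, 7.44% were called in PaS and 12.3% in CAR cells.

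Markers of other cells moved with genotype beside these genes. Of all tested genes, 7.44% were called between genotypes in PaS cells and 12.3% in CAR cells. The summed level of 10 PaS and fibroblast markers was 15052 to 15274 FPKM in PaS ko and 13395 to 14055 FPKM in PaS wt libraries, where 1 marker rose and 6 fell. In CAR cells the sum was 2601 to 2978 FPKM in ko and 1655 to 1712 FPKM in wt libraries, where 6 rose and 1 fell. Dcn, the proteoglycan decorin, made up most of these sums, with 2636 FPKM in CAR ko and 1525 FPKM in CAR wt libraries. The called markers of this list with the smallest p in CAR cells (limma) all rose. They were Ackr3 (1.51, adjusted p = 1.1e-07), Dcn (0.79, adjusted p = 3.2e-07) and Has1 (1.00, adjusted p = 2e-06). Of the 8 CAR cell markers, 4 fell and 0 rose in CAR ko, and 1 fell and 0 rose in PaS ko. Vim, Clec3b and Mfap5, the 3 genes most like Ly6a, differed in CAR cells by 0.16, 0.35 and 0.35 and were not called (adjusted p = 0.089, 0.28 and 0.057). No PaS and fibroblast marker was at 0 in all libraries of a group. The part of a change in cell make-up in the differences of the 8 genes between genotypes was not tested.

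Blood cell markers were lower in ko. The 9 neutrophil and monocyte markers measured, Ly6c2 among them, summed to 6010 to 6324 FPKM in PaS ko and 19036 to 21501 FPKM in PaS wt libraries, and to 4039 to 4599 FPKM in CAR ko and 9064 to 10589 FPKM in CAR wt libraries. Of these 9, 8 fell in PaS and 9 in CAR cells, where 7.44% and 12.3% of all tested genes were called. The 10 leukocyte markers summed to 159 to 166 FPKM in PaS ko and 202 to 228 FPKM in PaS wt libraries, where 2 of 8 tested fell, and to 67.9 to 74.1 FPKM in CAR ko and 194 to 210 FPKM in CAR wt libraries, where 7 of 8 fell.

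Blood stem and progenitor cells also express Cd34 and Ly6a. Their 8 markers summed to 26.2 to 31.9 FPKM in PaS ko and 32.3 to 35.6 FPKM in PaS wt libraries, and to 12.6 to 17.5 FPKM in CAR ko and 26.9 to 34.4 FPKM in CAR wt libraries. Of 7 tested, 2 fell in PaS and 3 in CAR cells, where 7.44% and 12.3% of all tested genes were called. Slamf1 was listed at 0 in all 3 PaS ko libraries. The 10 endothelial markers summed to 62.1 to 69.4 FPKM in PaS ko and 68.4 to 78.8 FPKM in PaS wt libraries, where 1 fell, and to 14.8 to 18.8 FPKM in CAR ko and 10.0 to 12.2 FPKM in CAR wt libraries, where 2 rose. In so short a list, these endothelial counts are close to the shares of all tested genes. The part of blood and endothelial cells in the values of Cd34, Ly6e, Ly6a, Ly6c1, Thy1 and Dpp4 was not tested.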

How the data were processed

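RNA of 12 sorted stromal libraries was measured by RNA-seq (SMART-Seq v4 libraries from poly(A)-enriched RNA, per the labels' protocols). The deposited values are FPKM per gene symbol, for which the submitters' processing notes name mm10 and the tools Cuffnorm 2.2.1, Cufflinks 2.2.1 and TopHat2 2.0.14 as used by the authors. The annotation, strand setting and filters are not given in the sources used here. No counts are given, so depth and counting error are unknown.

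Values were taken as log2(FPKM + 1), a scale on which a fold change understates that of low genes. Genes with at least 1 FPKM in at least 3 of 12 libraries were kept (12938 of 24347). The 4 groups entered one linear model in limma 3.58.1 under R 4.3.3 (trended empirical Bayes, 8 residual and 6.95 prior degrees of freedom), with two-sided p-values adjusted by Benjamini-Hochberg over all tested genes and called under 0.05. The fit was tested on simulated data.

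The levels of Ly6a and Thy1 between gates are given with no test, while their differences of genotype effects between populations were tested. The genes named are the 8 members, up to 3 called genes per list and comparison, and the 3 most correlated genes of each member, with Ebf1 and Pdgfra as checks. Slurp1, Cd55b and further values of Ly6d, Cd59a, Entpd3, Efhd1, Lrrn4cl, Uaca, Vim, Clec3b, Mfap5 and Dcn were chosen after they were seen. Members and lists were chosen with earlier results of these data known. One gene was taken out of the complement regulator list after its values were known, for a reason unrelated to them, and is not reported here. Replicates shared no more than 1 identical value per pair. Deviations of same-numbered libraries of different groups correlated weakly (-0.04 to 0.18, with 3 of 18 pairs over 0.1). The labels name no pairs, so replicate numbers were not used as pairs. The alternatives were another pseudocount or filter, another scaling, only the groups compared, large zeros as missing, a replicate block and leaving out each library.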

Additional observations from a re-analysis of the deposited data

Results flagged for a closer look

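The genotype effect of 3 genes differed between PaS and CAR cells by a test of the difference itself (limma, adjusted over all tested genes). For Ly6a the effect in PaS cells minus that in CAR cells was -1.10 on the log2 scale, with ko below wt in PaS cells and above wt in CAR cells, although the PaS effect alone was not called. This value is also the change in a gap between gates that the product of Ly6a set, so its call is limited by the sort. For Ly6c1 the difference of effects was -1.04, with the same directions, and its PaS effect alone was not called either. For Ly6e it was 0.53, with a decrease in CAR cells and no call in PaS cells.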

How the results depend on the processing

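Over all alternatives, no count of genes or of the 8 members called moved by more than 1.5 times. Of the single-gene values under alternatives, 584 kept their direction and call, 8 lost a call, 7 gained one and 10 changed sign, all 10 without a call. The sign changes were the difference of effects of Cd34 (-0.0236) and Thy1 (-0.11) with a pseudocount of 5 and, leaving out 1 library, those of Thy1 (-0.0783 to 0.17) and Nt5e (-0.10 to 0.0781), and Cd55 in CAR cells (-0.31 to 0.0095); the cause was not tested. Leaving out each library gave 735 to 826 genes called in PaS cells, 1128 to 1262 in CAR cells and 644 to 760 for the difference of effects, and 3 to 4, 5 and 3 to 4 members. Same-numbered libraries of different groups correlated at -0.04 to 0.18 in their deviations, with 3 of 18 pairs over 0.1. With the replicate number as a block, 961 genes were called in PaS cells, 1585 in CAR cells, 839 for the difference of effects, 4785 between populations in ko and 5568 in wt, and the first 3 held 4, 5 and 3 members, as without it. Unknown depth limits what can be said of Thy1 and Dpp4 in CAR cells.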
